A study of Mus musculus with 11 samples.

Results

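The 10 genes described here encode inflammatory cytokines (Tnf, Il1b, Il6, Il18 and Il33), receptors of the tumor necrosis factor family (Tnfrsf12a and Tnfrsf1a) and members of the NF-kB pathway (Nfkbia, Nfkb1 and Relb). They were chosen by symbol, and all 10 were found among the 28692 genes of the deposited matrices. Each was followed through tubular, podocyte, endothelial, stromal and immune cells of control kidneys and of kidneys with long-term injury.

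NF-kB is a family of transcription factors that cells hold inactive in the cytoplasm, bound to inhibitors of the IkB family. Cytokines such as tumor necrosis factor (TNF) and interleukin-1 act through receptors that lead to breakdown of the inhibitors, so that the NF-kB dimers enter the nucleus, and the genes they switch on include further cytokines, chemokines and the inhibitor Nfkbia itself. In a second arm of the pathway, receptors such as the TWEAK receptor (Tnfrsf12a) and the lymphotoxin receptor release dimers that contain Relb. In the kidney, the pathway is known from infiltrating leukocytes and from injured tubular epithelium, which can make cytokines and chemokines of its own.

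Single cell RNA sequencing (10x Chromium, 3' chemistry) was carried out on 11 kidney libraries from male C57Bl/6 mice that were 10 weeks old when operated, with naive controls of the same age. The groups were naive control (5 libraries), unilateral ischemia/reperfusion (UIR, the left renal pedicle clamped for 30 min; 3 libraries) and unilateral ureter obstruction (UUO, irreversible ligation of the left ureter; 3 libraries), both injuries at day 28. No transgene is named for any group. The operated mice received isoflurane and sustained-release buprenorphine around surgery, whereas for the naive controls no sham operation or buprenorphine is named. The control labels fall into 3 sets, Ctrl, Normal (N1 and N2) and Additional Normal (AN1 and AN2), called control 5, controls 1 and 2, and controls 3 and 4 here, and the unnumbered UIR and UUO libraries are called UIR 3 and UUO 3.

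The libraries held 91920461 to 110914244 unique molecular identifiers (UMIs, counted molecules) in control, 82522753 to 117043590 in UIR and 49503312 to 60918546 in UUO. Of 86468 barcodes called as cells, 42229 were removed because over 30% of their UMIs were mitochondrial, a loss of 57.0 to 78.9% of the barcodes called in controls. The loss was 23.8 to 37.2% after UIR and only 3.15 to 8.01% after UUO. The 40551 cells kept after doublet removal (10248 control, 16936 UIR and 13367 UUO) were named from fixed markers, 207 barcodes occurred in more than 1 library, and the share of free RNA in a library was estimated at 3.03 to 13.2%. The unnamed share was 1.07% in control, 9.26% with UIR and 9.22% with UUO. The classes were proximal tubule (PT), loop of Henle (LOH), distal tubule (DT), collecting duct principal (CD-P) and intercalated cells (CD-I), the epithelial class that the study names failed repair tubular cells (frTEC), podocytes, endothelium, fibroblasts (Fibro 1), mural cells and immune classes. Levels are given as CPM (a gene's UMIs scaled to a common total, computed from the summed UMIs) of all cells of a class in a library, called a pool when it held at least 20 cells.

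The letters upstream of 3 of the genes are shown because Nfkbia and Tnfrsf12a were called in several classes, Il6 holds the other match found among these genes, and they differ in whether the NF-kB binding consensus (kB, 10 bases, searched by name on both strands) stands close to the start site. RefSeq windows of build GRCm38.p6 were found for 8 of the 10 genes and cover the 250 bases before the start, written 5′ to 3′ on the gene's strand. Capitals mark the kB match. The Nfkbia window is chr12:55492648-55492897 (minus strand), that of Il6 is chr5:30012864-30013113 (plus strand) and that of Tnfrsf12a is chr17:23677450-23677699 (minus strand).
Nfkbia: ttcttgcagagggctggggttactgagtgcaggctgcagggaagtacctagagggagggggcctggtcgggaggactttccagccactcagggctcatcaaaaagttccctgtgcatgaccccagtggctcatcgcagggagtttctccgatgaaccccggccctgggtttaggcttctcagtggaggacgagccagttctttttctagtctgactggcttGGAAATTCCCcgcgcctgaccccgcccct
Il6: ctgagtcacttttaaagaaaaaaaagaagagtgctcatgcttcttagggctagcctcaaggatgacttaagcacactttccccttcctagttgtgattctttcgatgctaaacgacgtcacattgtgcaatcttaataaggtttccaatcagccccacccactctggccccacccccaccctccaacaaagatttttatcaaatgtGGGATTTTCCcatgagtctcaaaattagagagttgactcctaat
Tnfrsf12a: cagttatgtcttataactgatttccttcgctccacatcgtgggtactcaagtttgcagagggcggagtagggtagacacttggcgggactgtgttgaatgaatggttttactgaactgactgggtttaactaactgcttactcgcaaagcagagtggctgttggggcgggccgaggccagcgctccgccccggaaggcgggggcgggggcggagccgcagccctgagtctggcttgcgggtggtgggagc
The match lies at -29 to -20 in Nfkbia and at -44 to -35 in Il6, counted from the start site, and the Tnfrsf12a window holds none. The consensus was found in 2 of the 9 windows of these genes and in 2382 of 32851 windows of all genes (7.25%). A match describes these letters and is not a measured binding site, and a window without one says nothing about binding elsewhere.

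All 10 genes are protein coding. On GRCm38, Tnf (ENSMUSG00000024401) spans chr17:35199381-35202007 on the minus strand, and Tnfrsf12a (ENSMUSG00000023905) lies on the same chromosome at 17:23675445-23677468, also on the minus strand. Il1b (ENSMUSG00000027398) spans 2:129364570-129371139 on the minus strand, Il6 (ENSMUSG00000025746) spans 5:30013114-30019981 on the plus strand, Il18 (ENSMUSG00000039217) spans 9:50554827-50581840 on the plus strand and Il33 (ENSMUSG00000024810) spans 19:29925114-29960718 on the plus strand. Tnfrsf1a (ENSMUSG00000030341) spans 6:125349362-125362484 on the plus strand. Nfkbia (ENSMUSG00000021025) spans 12:55489410-55492647, Nfkb1 (ENSMUSG00000028163) spans 3:135584655-135691547 and Relb (ENSMUSG00000002983) spans 7:19606217-19629438, all 3 on the minus strand.

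Relb, Nfkbia and Tnfrsf12a rose in LOH, DT and CD-P after both injuries at day 28. Nfkb1 did not pass in LOH nor Tnfrsf1a in DT, and in frTEC only Nfkbia and Tnfrsf1a passed, both after UUO. Tnf rose in principal cells, Il33 in endothelium after UIR, and none of the 10 genes passed as lower than control in any of the 11 classes. Across the 11 classes with at least 2 pools in each group, 64 of 110 gene and class pairs passed the filter on low counts. Of these, 27 (42.2%) were called higher after UIR and 30 (46.9%) after UUO by edgeR's quasi-likelihood test (adjusted p under 0.05, Benjamini-Hochberg over all genes of the class), and 0 were called lower. Over all genes and classes tested, 7.21% were called higher and 6.0% lower after UIR, and 9.14% higher and 8.55% lower after UUO. The 10 genes were chosen with earlier results of these data known, so this contrast and the counts by class are not independent evidence. Pairs near 0 in control, such as Tnf in CD-P and Il1b in PT, passed the low-count filter through the injured groups. For such pairs a lower call was not possible. Both of these pairs count among the calls after UIR, and Tnf in CD-P also among those after UUO. At an unadjusted p under 0.05, 0 pairs were lower after UIR and 1 after UUO, and DESeq2 called 0 lower in either comparison. UIR and UUO were compared with the same 5 control libraries, so the 2 columns of calls share their controls. The study's methods name 5 naive mice and 3 mice per model, but no label ties a library to a mouse, and p-values measure the spread between these libraries.

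By class, UIR and UUO raised 6 and 2 of 7 in PT, 4 and 4 of 5 in LOH, 4 and 4 of 5 in DT, 5 and 6 of 6 in CD-P, and 3 and 5 of 5 of the genes tested in CD-I. In frTEC 0 and 2 of 5 genes rose, in podocytes 2 and 2 of 6, in endothelium 1 and 2 of 6, in mural cells 0 and 0 of 5, in macrophages 1 and 1 of 8, and in T/NK cells 1 and 2 of 6. The share of all genes called higher in the same fits was 16.9 and 19.9% in LOH, 18.2 and 20.8% in DT, 10.0 and 20.4% in CD-P, 6.67 and 12.3% in CD-I and 7.76 and 2.32% in PT. It was 1.61 and 2.18% in frTEC, 1.24 and 1.38% in podocytes, 1.14 and 5.64% in endothelium, 8.5 and 4.99% in mural cells, 3.65 and 5.51% in macrophages and 0.274 and 0.762% in T/NK cells. The mural fit rested on 2 control pools and frTEC on 3, so fewer calls there are not shown to be a smaller response. Relb, Nfkb1, Nfkbia, Tnfrsf1a and Tnfrsf12a passed the low-count filter in all 11 classes, Tnf and Il18 in 3 each, Il1b in 2, Il33 in 1 and Il6 in none.

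**Figure D1:**
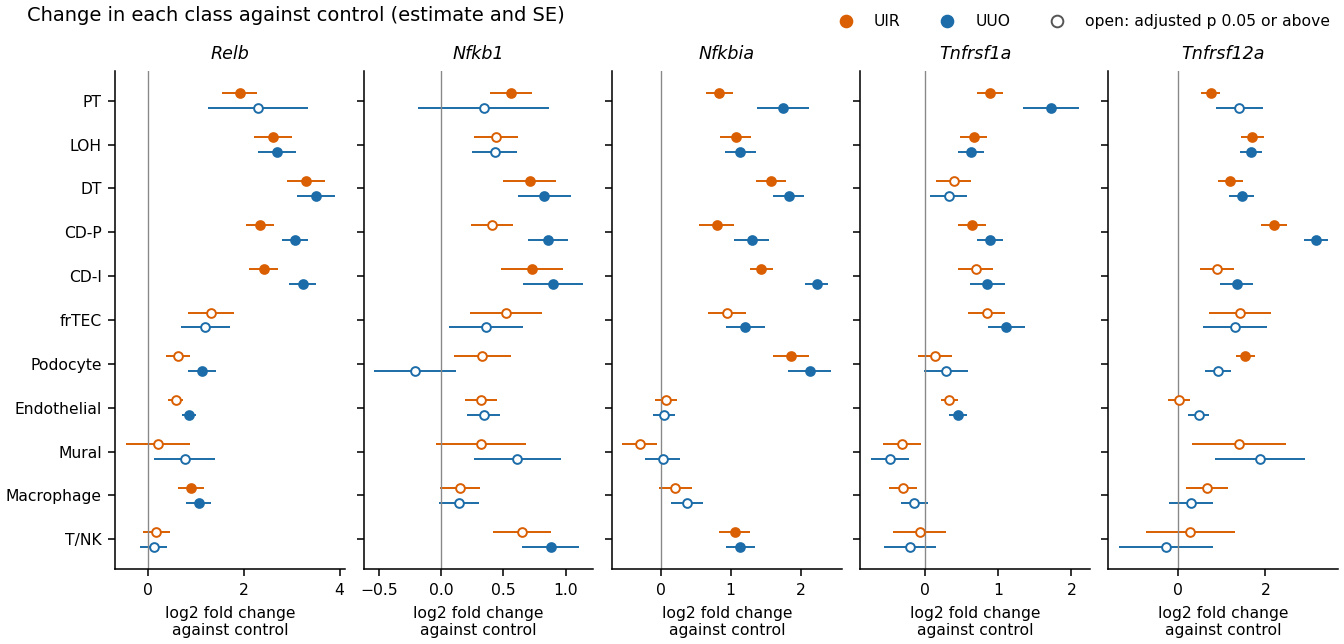
Log2 fold change against control (x axis) of Relb, Nfkb1, Nfkbia, Tnfrsf1a and Tnfrsf12a in each of the 11 classes tested, after UIR (orange) and UUO (blue). Points are the edgeR estimates, bars their standard errors, and filled points passed the adjusted threshold; Relb lies furthest to the right in DT, at 3.30 after UIR and 3.51 after UUO, and all mural points are open.

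Tnf encodes the cytokine after which the receptor family is named. In principal cells it stood at 0 CPM in 4 control libraries and at 1.26 CPM in the other. After UIR the principal cell pools held 7.0, 3.65 and 19.1 CPM, and after UUO 15.4, 17.6 and 15.5 CPM. Each injured library was above each control library, and the UUO libraries lay close together while UIR varied more. The fitted log2 fold changes were 4.29 (SE 0.80, adjusted p = 8.96e-04) after UIR and 4.91 (SE 0.73, adjusted p = 2.70e-05) after UUO, but the control arm held only 2 UMIs. As ratios of summed counts, 66 UMIs after UIR gave 25.1 (95% interval 6.67 to 211, counting error only) and 134 UMIs after UUO gave 40.5 (11 to 338). Both control UMIs came from control 5, and without it the sums were at least 11.3-fold and at least 18.3-fold higher than the 3 UMIs that a control count of 0 allows. Without UIR 2, which held 43 of the 66 UMIs, the UIR ratio was 13.4. The gene passed the low-count filter in this class through the injured groups. With controls N1 and N2 alone the UIR call was lost (adjusted p = 0.06865).

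The principal cell signal was set against the genes of cells that could carry Tnf into these pools. The 134 Tnf UMIs of UUO principal cells stood beside 3 UMIs of Cd3e, 143 of S100a8 and S100a9 and 399 of C1qa, C1qb and C1qc. In T/NK cells of UUO, 155 Tnf UMIs stood beside 2898 of Cd3e. In neutrophils, 55 stood beside 58722 of S100a8 and S100a9, and in macrophages 102 stood beside 271081 of the C1q genes. Tnf per 100 C1q UMIs was therefore 33.6 in principal cells and 0.0376 in macrophages of UUO, and Tnf per 100 S100a8 and S100a9 UMIs was 93.7 in principal cells and 0.0937 in neutrophils. Pooled over the UUO libraries, 62 of 586 principal cells had a Tnf UMI at a median of 9049.5 UMIs per cell, and 0 of 1936 endothelial cells had one at a median of 4581.5, counts of cells at unequal depth that were not compared by a test. Empty droplets held 0 to 0.0824 CPM of Tnf in control, 0.819 to 2.02 in UIR and 2.50 to 7.52 in UUO libraries. The part of T/NK, neutrophil or macrophage RNA in the principal cell signal was not tested.

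Among clusters of principal cells, 1 took up 48.8% of those after UUO and 19.6% after UIR, but only 1 control cell (0.214%). Tnf stood there at 23.6 CPM after UIR and 21.4 CPM after UUO. It reached at most 0.810 CPM in the 2 clusters with at least 20 cells each from control and UIR but only 8 and 5 from UUO. A cluster of shallow cells shared by the 3 groups held 0, 4.11 and 5.90 CPM, and a small cluster of injured cells held 0 after UIR and 1.38 CPM after UUO. Clusters were built from variable genes that left out the genes described here, and this is a description with no test. The part of these clusters in the Tnf results of principal cells was not tested. In the other distal segments Tnf did not pass the low-count filter in any group comparison. It was at 0 in all control pools of LOH, DT and CD-I, against 1.42, 1.26 and 2.44 CPM in LOH after UIR and 3.33, 3.64 and 2.10 CPM after UUO. Set against the 3 UMIs that a pooled control count of 0 allows, the summed LOH counts were at least 1.17-fold higher after UIR (46 UMIs) and at least 2.11-fold higher after UUO (44 UMIs). The same bounds were 2.10-fold (12 UMIs) and 5.11-fold (18 UMIs) in DT. Without control 5 they fell to 0.831 and 1.5 in LOH and to 1.4 and 3.41 in DT. In PT, 4 UMIs were counted in all UIR libraries and 0 in the control and UUO libraries.

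Tnf did not pass the test in T/NK cells or macrophages, the immune classes with enough control pools. The control arms were near the floor, with 9 Tnf UMIs in all T/NK pools and 12 in all macrophage pools. After UIR and UUO there were 111 and 155 UMIs in T/NK cells and 56 and 102 in macrophages. A missing call here thus does not show that the level stayed the same. T/NK pools held 32.4, 0, 29.6 and 17.9 CPM in the 4 controls other than control 2, 9.03, 12.3 and 17.7 CPM after UIR and 21.6, 20.7 and 16.3 CPM after UUO, with log2 fold changes of -0.45 (adjusted p = 0.8747) and 0.01 (adjusted p = 0.9960). Macrophage pools held 4.14 to 23.0 CPM in control, 4.15 to 5.09 after UIR and 4.65 to 8.16 after UUO, with log2 fold changes of -1.06 (adjusted p = 0.3016) and -0.65 (adjusted p = 0.5055), and the highest control pool belonged to control 4. Neutrophils, which reached 20 cells only in UUO libraries, held 28, 157 and 17.3 CPM, so a single library set their mean of 67.3 ± 77.5 CPM (SD, n = 3).

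Il1b encodes interleukin-1 beta, a cytokine that is made as a precursor and cut to its active form by inflammasome caspases. Its highest level was in neutrophils of UUO, at 1225, 2945 and 2076 CPM. In cDC2, conventional dendritic cells, the 17 control cells held 0 Il1b UMIs and were too few for a pool. Injured cDC2 held 588 UMIs (151 CPM) after UIR and 606 UMIs (127 CPM) after UUO. These sums were at least 6.83-fold and at least 5.72-fold above the limit that the control count of 0 allows. The lowest bounds with a library left out were 3.11 and 2.61. The change against control in cDC2 was not tested. Macrophages held 302, 195, 359, 323 and 362 CPM in control, 308, 431 and 483 CPM after UIR and 288, 133 and 245 CPM after UUO. The UIR pools reached above all controls in 2 of 3 libraries, and the UUO pools lay within or below the control range. Against control neither change passed (0.41, adjusted p = 0.3038 after UIR; -0.55, adjusted p = 0.1241 after UUO), whereas UUO was lower than UIR by a log2 difference of -0.96 (SE 0.22, adjusted p = 0.01346). That call was lost without UIR 1 (-0.90, adjusted p = 0.08447), UIR 2 (-0.84, 0.06945) or UUO 1 (-0.70, 0.08094) and with free RNA subtracted (-1.03, 0.0642), and without UUO 3 the fall against control passed (-0.81, 0.02829). With no filter on low counts both changes against control passed (0.47, 0.03166 and -0.46, 0.03151). Macrophages of the groups lay largely in different clusters, with 64.1% of control cells in 1 cluster, 44.2% of UIR cells in another that held 2.37% of UUO cells, and 46.2% of UUO cells in another that held 10.0% of UIR cells, and the part of this in the Il1b and Relb results was not tested. In the macrophage cluster with the most control cells, Il1b stood at 352 CPM in control, 637 CPM after UIR and 290 CPM after UUO, and in the other cluster with at least 20 control cells at 106, 239 and 106 CPM.

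Il1b was also called higher in PT after UIR (log2 fold change 4.53, SE 0.56, adjusted p = 5.60e-06), from 0 to 0.203 CPM in controls to 1.68, 5.22 and 1.80 CPM. The gene passed the low-count filter through the injured pools. The call held in the 15 alternatives in which the gene was tested, and in the other 9 (any of the 5 controls left out, the mitochondrial limit of 15%, cells of at least 1000 UMIs, naming by each cell's own score and free RNA subtracted) it did not pass the filter. Per 100 C1q UMIs there were 3.95 Il1b UMIs in PT and 1.81 in macrophages of control, 3.79 and 2.63 after UIR, and 2.11 and 1.2 after UUO, from 6, 48 and 2 Il1b UMIs in PT, and the part of macrophage RNA in the PT call was not tested. The same ratio in UIR was 2.90 in LOH, 5.38 in DT, 3.32 in CD-P, 4.33 in CD-I, 2.43 in endothelium and 3.57 in T/NK cells. The macrophage marker list (6 genes, none at 0) summed to 12.6 to 29.7 CPM in control PT and 79.7 to 144 CPM in UIR PT. Empty droplets held 0.494 to 1.04 CPM of Il1b in control, 18.6 to 35.0 CPM in UIR and 38.4 to 63.3 CPM in UUO libraries.

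Il33 encodes an alarmin that sits in the nucleus of barrier and stromal cells and is released on damage. Fibro 1 held 180, 185 and 224 CPM after UIR and 192, 145 and 109 CPM after UUO, with no difference between the injuries that passed (-0.42, SE 0.19, adjusted p = 0.4242). Control libraries had 13 Fibro 1 cells in all, too few for a pool, with 5 Il33 UMIs or 145 CPM (exact 95% interval 47.1 to 339). All 5 came from the 8 cells of control 5 (197 CPM), and the 5 cells of the other controls held none. The level in control fibroblasts is thus not separated from that after injury at this depth. In endothelium Il33 stood at 43.1, 16.6, 7.34, 23.0 and 6.17 CPM in control, 44.4, 55.8 and 64.7 CPM after UIR and 44.2, 50.9 and 30.1 CPM after UUO. All UIR pools lay above all control pools, while 1 UUO pool fell within the control range.

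The endothelial change in Il33 passed after UIR (log2 fold change 1.29, SE 0.32, adjusted p = 0.04392) and not after UUO (0.85, SE 0.33, adjusted p = 0.1067), and UUO against UIR was -0.44 (adjusted p = 0.6391). The UIR call was lost without control 1, 2, 3 or 4 or UIR 1 or 2, with AN1 and AN2 alone, with 15% removed as doublets and with free RNA subtracted, with estimates of 1.09 to 1.87 and adjusted p of 0.05283 to 0.1748. The UUO change passed without control 5, the highest control (1.54, adjusted p = 0.004349), with N1 and N2 alone (1.66, 0.03142) and with no filter on low counts (0.88, 2.94e-04). Of the 5 endothelial clusters with at least 20 cells in every group, one held 83.6 CPM of Il33 in control, 136 CPM after UIR and 152 CPM after UUO. Another held 0, 45.9 and 118 CPM, the next held 3.32, 10.8 and 15.1 CPM, and the other two held none in any group. A cluster shared by control and UIR held 5.22 and 5.24 CPM, and one with 15 control cells held 211 and 203 CPM after UIR and UUO. Endothelial clusters differed widely in this gene, from 0 to 211 CPM. In CD-P and LOH the control pools held 0 Il33 UMIs, against 16 and 32 UMIs after UUO. These sums were at least 3.22-fold and at least 1.54-fold above the limit that the control count of 0 allows. Without control 5 the bounds were 2.18 and 1.09, and the LOH bound after UIR was 0.637. Empty droplets held 0.384 to 0.741 CPM of Il33 in control and 7.51 to 15.9 CPM in UUO libraries.

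Il18, like Il1b a cytokine matured by inflammasome caspases, was level in macrophages at 28.9 ± 6.34 CPM in control, 29.2 ± 2.31 after UIR and 28.7 ± 1.22 after UUO (SD, n = 5, 3 and 3; log2 fold changes -0.02 and -0.10). Podocytes held 47.0, 60.6, 34.6, 16.7 and 27.9 CPM in control, 65.5, 42.1 and 47.7 CPM after UIR and 19.1 and 72.7 CPM in the 2 UUO pools, and the groups overlapped (0.43, adjusted p = 0.7273; 0.22, adjusted p = 0.8781). Monocytes, measured only in UUO, held 38.9 ± 9.38 CPM. In LOH, DT and CD-P the control pools were all at 0 and injured pools reached at most 4.44 CPM, and summed counts were at least 2.02-fold higher in LOH and at least 3.22-fold higher in CD-P after UUO than the limit that the control count of 0 allows. In CD-P 12 of the 16 UMIs came from UUO 1, without which the bound was 1.58.

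Il6, a cytokine that signals through Il6st, was close to the limit of detection in these libraries and passed no filter. Endothelial pools held 0 in all 5 controls, 2.22, 0.764 and 5.16 CPM after UIR and 1.12, 1.43 and 6.55 CPM after UUO. From 21 and 32 UMIs, these sums were at least 3.32-fold and at least 3.57-fold higher than the limit that the control count of 0 allows. The bounds were 1.86 without UIR 2, which gave 13 of the 21 UMIs, and 1.6 without UUO 2, which gave 22 of the 32. Fibro 1 held 2.93, 5.19 and 1.12 CPM after UIR and 1.31, 4.2 and 1.45 CPM after UUO, and UUO neutrophils held 22.4, 3.73 and 0 CPM, which is 5 UMIs in 3 cells. Macrophages gave 2 UMIs, both in 1 UUO cell.

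**Figure D2:**
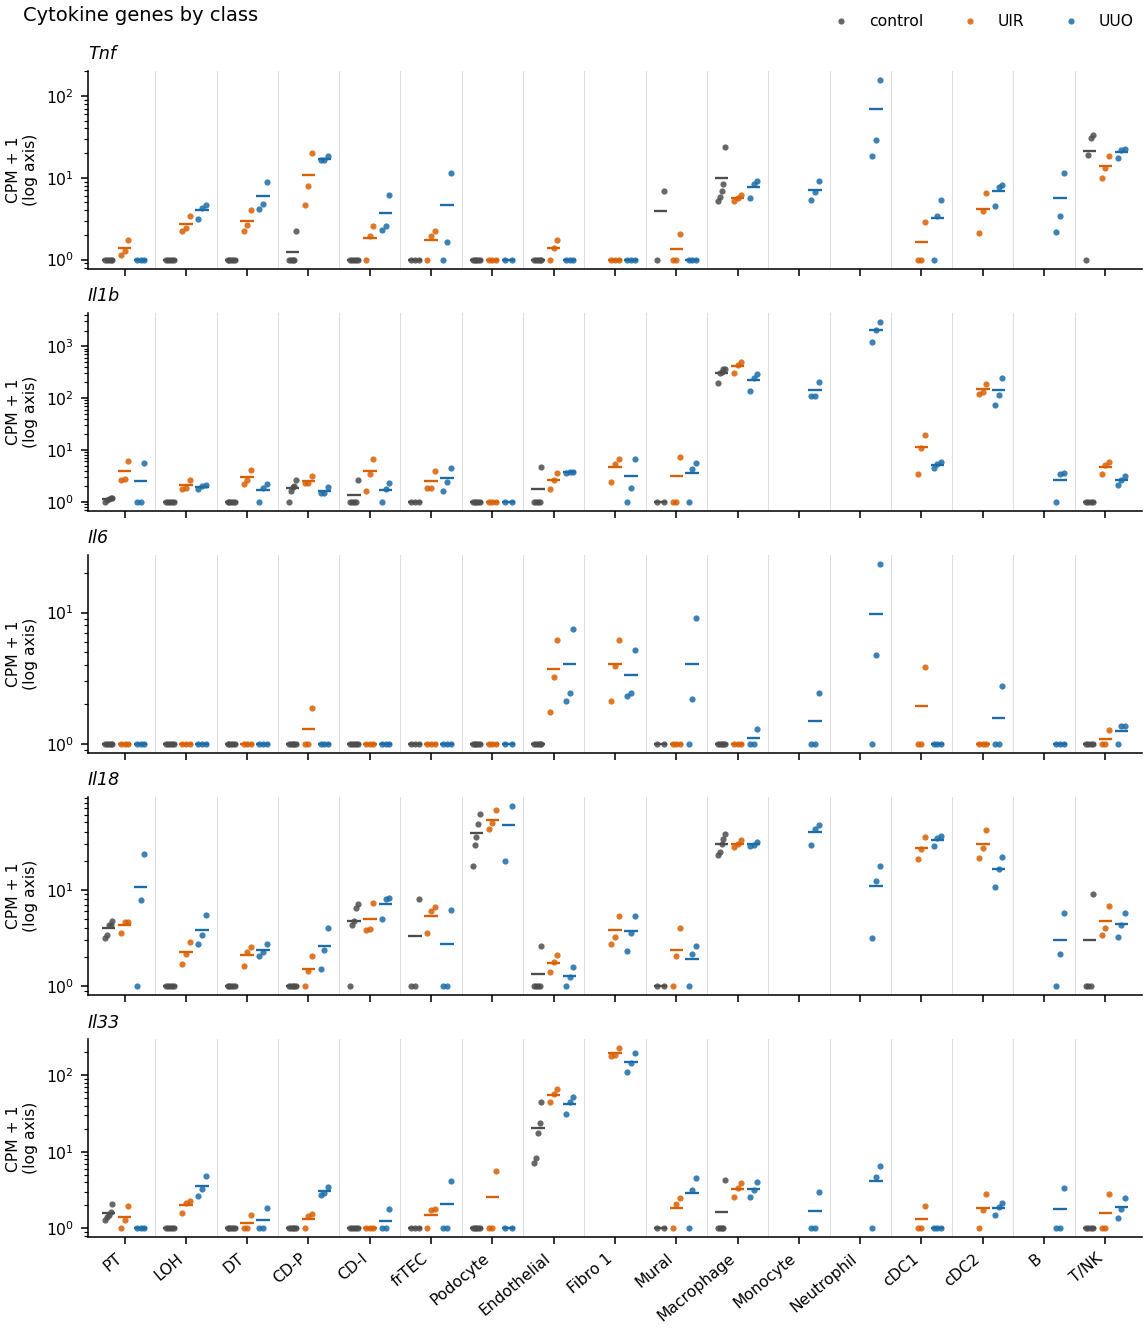
CPM + 1 on a log axis (y) of Tnf, Il1b, Il6, Il18 and Il33 in each class (x), with a point for each library, drawn from low to high within a group, and a line at the group mean. Il1b is highest in UUO neutrophils (1225 to 2945 CPM) and Il33 in Fibro 1, while Tnf in CD-P separates injured from control libraries; classes without points had no pool of 20 cells.

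Tnfrsf12a encodes Fn14, the receptor for the cytokine TWEAK (Tnfsf12), and is known as an injury-induced receptor of epithelium. Principal cells held 6.30, 7.02, 4.95, 9.66 and 6.20 CPM in control, 31.1, 23.4 and 51.5 CPM after UIR and 76.3, 81.4 and 57.5 CPM after UUO. The 3 groups did not overlap and stood in the order control, UIR, UUO. The log2 fold changes were 2.20 (SE 0.29, adjusted p = 3.42e-05) and 3.16 (SE 0.27, adjusted p = 4.09e-08), and both calls held in all 24 alternatives. UUO exceeded UIR by 0.96 (SE 0.21, adjusted p = 0.007586), a call lost only at a mitochondrial limit of 15% (0.73, adjusted p = 0.08382). The mix of principal cell clusters also differed. The cluster with 48.8% of the UUO cells took up 19.6% after UIR and 0.214% in control. Another fell from 45.8% in control to 17.3% after UIR and 1.37% after UUO. The part of this mix in the principal cell results for Tnfrsf12a, Tnfrsf1a, Nfkbia, Nfkb1 and Relb was not tested.

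In LOH, Tnfrsf12a stood at 12.2, 9.21, 31.2, 16.4 and 32.0 CPM in control, 66.0, 76.3 and 95 CPM after UIR and 87.4, 80.6 and 62.4 CPM after UUO. The log2 fold changes were 1.70 (SE 0.26, adjusted p = 1.78e-05) and 1.67 (SE 0.26, adjusted p = 1.97e-05), with no overlap between control and injured pools. In DT it rose from 5.47 to 25.5 CPM to 29.2 to 40.6 CPM after UIR (1.2, adjusted p = 0.001251) and 37.0 to 52.0 CPM after UUO (1.46, adjusted p = 1.62e-04). In CD-I the UUO change passed (1.34, SE 0.37, adjusted p = 0.008565) but not without UUO 1 (1.06, 0.06798), with pools of 50 cells (1.55, 0.05496), with N1 and N2 or AN1 and AN2 alone (1.07, 0.2274 and 1.2, 0.1329) or with 15% removed as doublets (0.50, 0.3752). The UIR change did not pass (0.90, adjusted p = 0.1332) unless UIR 3 was left out (1.30, 0.0136), the replicate block was used (0.98, 0.03914) or low counts were not filtered (0.94, 0.00443). With controls AN1 and AN2 alone the DT calls were lost (0.72, adjusted p = 0.1745; 0.98, 0.05752), as were both LOH calls at the mitochondrial limit of 15% (1.28, 0.1418; 1.28, 0.1277).

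Tnfrsf12a rose less in PT. Its pools held 10.2, 8.56, 10.8, 14.8 and 13.2 CPM in control and 13.8, 23.8 and 18.8 CPM after UIR, so that 1 UIR library lay within the control range (0.75, SE 0.22, adjusted p = 0.02764). The call was lost without control 1 (0.67, 0.06365), control 5 (0.68, 0.05431), UIR 1 (0.46, 0.4043) or UIR 2 (0.78, 0.05547), by DESeq2 (0.71, 0.1761), with AN1 and AN2 alone (0.46, 0.2885) and with free RNA subtracted (0.70, 0.0887). The rise after UIR was larger in LOH than in PT by 1.0 (SE 0.29, adjusted p = 0.006042, edgeR's quasi-likelihood test of the class-by-group term with library as a block), a comparison in which 16.8% of all genes were called in either direction. Without control 5 or UIR 2 it missed the threshold (0.84, 0.05743; 0.86, 0.05462). After UUO the difference was 0.36 (adjusted p = 0.6994), where 9.57% of all genes were called. PT pools of UUO held only 36 to 88 cells and ranged from 16.0 to 106 CPM (1.40, adjusted p = 0.1599), a change that passed without UUO 2, by DESeq2, with no filter or at the mitochondrial limit of 15% (1.36 to 2.84, adjusted p of 0.003845 to 0.03909).

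Podocytes held the highest control level of Tnfrsf12a among the classes compared. Their pools stood at 40, 80.8, 92.3, 98.1 and 72.6 CPM in control, 259, 212 and 172 CPM after UIR and 95.4 and 188 CPM after UUO. All UIR pools were above all controls (1.54, SE 0.22, adjusted p = 1.08e-04), whereas the UUO change did not pass (0.92, adjusted p = 0.1072) except with no filter on low counts (0.88, 0.006539). With controls N1 and N2 alone the UIR call was lost (1.27, adjusted p = 0.0742), as it was with each cell named by its own score (1.44, 0.07362). A shallow cluster led by podocyte genes held 9.35% of control, 37.8% of UIR and 47.5% of UUO podocytes, and its part in the podocyte results for Tnfrsf12a, Nfkbia and Relb was not tested. In frTEC the control pools spread from 8.07 to 105 CPM and overlapped the injured ones (1.42, adjusted p = 0.3020; 1.30, adjusted p = 0.3697). In frTEC 1 cluster held 90.2% of control cells, 37.9% of UIR and 58.5% of UUO cells, and its part in the frTEC results was not tested. Endothelial pools held 9.86 to 14.7 CPM in control, 9.98, 14.1 and 14.3 CPM after UIR and 15.5, 21.7 and 17.3 CPM after UUO. The UUO pools lay above all controls, but neither change passed (0.02, adjusted p = 0.9973 and 0.47, adjusted p = 0.2429). Mural pools held 11.7 and 8.01 CPM in control and 14.9 to 75.4 CPM after injury (1.39, adjusted p = 0.4769 and 1.88, adjusted p = 0.3396). Tnfsf12, the ligand, stood at 160, 126 and 115 CPM in podocytes of control, UIR and UUO, at 43.4, 64.7 and 78.6 CPM in macrophages, and rose in LOH after UIR from 3.1 ± 3.87 to 21.8 ± 3.67 CPM (2.61, adjusted p = 5.47e-04).

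Tnfrsf1a encodes the main TNF receptor, which most cells carry. It was highest in endothelium, at 190 ± 17 CPM in control, 244 ± 29.2 CPM after UIR and 274 ± 7.38 CPM after UUO (SD, n = 5, 3 and 3), and next in monocytes (218 ± 16.4 CPM), neutrophils (192 ± 36.9 CPM) and Fibro 1 (182 ± 11.5 and 181 ± 27.3 CPM). The control endothelium, Fibro 1 and neutrophil levels lay within their spread of each other. Endothelial pools stood at 170, 195, 215, 179 and 193 CPM in control and at 280, 265 and 275 CPM after UUO, without overlap (0.45, SE 0.12, adjusted p = 0.01719), and the UIR change did not pass (0.33, adjusted p = 0.2321). With controls N1 and N2, or AN1 and AN2, alone the UUO call was lost (0.32, adjusted p = 0.2756 and 0.44, 0.1079), as it was with 15% removed as doublets (0.42, 0.0707).

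In tubular cells Tnfrsf1a started lower, and it passed after both injuries in LOH, CD-P and PT. LOH pools held 26.1, 36.8, 33.8, 38.3 and 29.7 CPM in control, 61.3, 57.1 and 58.5 CPM after UIR and 55.9, 57.5 and 59.9 CPM after UUO, with no overlap (0.66, adjusted p = 0.006209; 0.62, adjusted p = 0.008764). These calls were lost with controls N1 and N2 alone (0.56, 0.2015 and 0.52, 0.2241), with AN1 and AN2 alone (0.59, 0.1163 and 0.55, 0.1337) and at a mitochondrial limit of 15% (1.04, 0.1729 and 1.03, 0.1657). Principal cells went from 19.7 to 31.4 CPM to 35.5 to 44.3 CPM (0.64, adjusted p = 0.02595) and 40 to 59.0 CPM (0.88, adjusted p = 8.41e-04). The UIR call there was kept in 15 of 24 alternatives and lost without control 1, 3 or 5 or UIR 1 or 3, with N1 and N2 or AN1 and AN2 alone, at the mitochondrial limit of 15% and with 15% removed as doublets (0.48 to 0.89, adjusted p of 0.0518 to 0.3841), and the UUO call with N1 and N2 alone (0.71, 0.09136). PT pools of UIR held 16.8, 26.8 and 23.4 CPM against 11.2 to 13.5 CPM in control (0.88, SE 0.18, adjusted p = 0.001670), a call lost without UIR 1 (0.66, 0.07398) and at the mitochondrial limit of 15% (0.63, 0.311). The PT change after UUO (1.72, adjusted p = 0.01238) rested on pools of 0, 82.5 and 45.7 CPM, from 0, 7 and 20 UMIs. It was lost without UUO 1 (1.53, 0.08928) or UUO 2 (1.55, 0.3039), at the mitochondrial limit of 15% (0.85, 0.634) and with 15% removed as doublets (0.05, 0.988).

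Tnfrsf1a also passed after UUO in CD-I (0.85, adjusted p = 0.009709, lost without UUO 2, with pools of 50 cells or with AN1 and AN2 alone at 0.50 to 0.70 and adjusted p of 0.06751 to 0.3287) and in frTEC (1.11, adjusted p = 0.03472). The frTEC pools stood at 36.3, 35.1 and 34.6 CPM in control and 81.7, 67.5 and 90.2 CPM after UUO, but the call was lost without control 2, 4 or 5 or UUO 2 or 3 (1.07 to 1.14, adjusted p of 0.05761 to 0.1217) by DESeq2 (0.06244) and with the replicate block (0.05477). It did not pass in DT (0.39, adjusted p = 0.2191; 0.32, adjusted p = 0.3280). In CD-I after UIR it stood at 0.69 (adjusted p = 0.05849) and passed without control 4 or UIR 2 (0.89 each), with no filter on low counts (0.73, 0.02096) and with naming by each cell's own score (0.82, 0.02906). Mural pools held 128 and 152 CPM of Tnfrsf1a in control and 89.8 to 111 CPM after injury, without overlap, but neither change passed (-0.32, adjusted p = 0.4932 and -0.49, adjusted p = 0.3185). Nor did the changes in macrophages (-0.31, adjusted p = 0.4117 and -0.15, adjusted p = 0.6977), T/NK cells (-0.08, adjusted p = 0.9753 and -0.21, adjusted p = 0.8757) or podocytes (0.13, adjusted p = 0.9373 and 0.28, adjusted p = 0.7430).

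Nfkbia encodes IkB alpha, the inhibitor that NF-kB itself switches on, with a kB match in the window printed above. Intercalated cells held 41.8, 71.7, 61.3, 65.8 and 76.3 CPM in control, 235, 165 and 182 CPM after UIR and 401, 373 and 333 CPM after UUO. The 3 groups did not overlap. The log2 fold changes were 1.44 (SE 0.17, adjusted p = 2.04e-06) and 2.23 (SE 0.17, adjusted p = 4.95e-10), both kept in all 23 alternatives, and UUO exceeded UIR by 0.79 (SE 0.16, adjusted p = 0.007047). That last call was lost without UIR 1 (0.71, 0.07223) and at a mitochondrial limit of 15% (0.51, 0.15).

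The other distal segments showed the same order of control below injury for Nfkbia. DT pools held 22.9, 41.9, 38.3, 28 and 35.2 CPM in control, 130, 87.6 and 162 CPM after UIR and 193, 143 and 132 CPM after UUO (1.58, adjusted p = 1.60e-06; 1.83, adjusted p = 1.40e-07; 24 of 24 alternatives each). LOH pools rose from 36.8 to 89.1 CPM to 126 to 172 CPM (1.07, adjusted p = 6.15e-04) and 111 to 188 CPM (1.14, adjusted p = 2.88e-04), and these calls were lost with controls AN1 and AN2 alone (0.79, 0.1016; 0.85, 0.06553) or a mitochondrial limit of 15% (0.84, 0.2895; 0.92, 0.2115). In CD-P the UIR pools (120, 106 and 187 CPM) overlapped the control range of 46.6 to 119 CPM (0.80, adjusted p = 0.03235), and the call was kept in 14 of 24 alternatives. It was lost without control 1, 2, 3 or 5 or UIR 2, with N1 and N2 or AN1 and AN2 alone, at the mitochondrial limit of 15%, with 15% removed as doublets and with naming by each cell's own score (0.40 to 0.82, adjusted p of 0.05413 to 0.5721). The UUO pools of CD-P, at 264, 196 and 147 CPM, lay above all controls (1.30, adjusted p = 3.18e-04), a call lost at the mitochondrial limit of 15% (0.80, 0.1161).

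Nfkbia also passed after both injuries in podocytes and T/NK cells. A single cluster held 41.5% of control T/NK cells but 7.85% of those of UIR and 5.89% of those of UUO, and its part in the T/NK results for Nfkbia and Nfkb1 was not tested. Podocyte pools held 36.4, 108, 53.8, 48.0 and 76.4 CPM in control, 240, 306 and 124 CPM after UIR and 267 and 271 CPM after UUO, without overlap (1.86, adjusted p = 1.07e-04; 2.13, adjusted p = 2.29e-04). Both podocyte calls were lost with controls N1 and N2 alone (1.40, 0.2077; 1.66, 0.09035). T/NK pools held 130, 170, 257 and 224 CPM in control, 426, 397 and 334 CPM after UIR and 518, 374 and 371 CPM after UUO (1.06, SE 0.22, adjusted p = 0.01284; 1.14, SE 0.21, adjusted p = 0.001916). The UIR call of T/NK cells was lost without control 5 (0.83, 0.1230) or control 1 (1.02, 0.0994), and both calls with controls AN1 and AN2 alone (0.71, 0.4838; 0.79, 0.2176). Control 2 was not among these pools, since it had 19 T/NK cells, and it held 489 CPM of Nfkbia, within the injured range. With pools of at least 15 cells, which took it in, the UIR call was lost (0.79, adjusted p = 0.1397) and the UUO call held.

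Macrophages and endothelium did not pass for Nfkbia. Macrophage pools stood at 101 to 273 CPM in control, 171 to 221 CPM after UIR and 152 to 281 CPM after UUO (0.21, adjusted p = 0.6886; 0.38, adjusted p = 0.3393), and endothelium was high in all groups, at 299 to 496, 414 to 513 and 384 to 572 CPM (0.07, adjusted p = 0.9495; 0.05, adjusted p = 0.9050). The difference of the T/NK and macrophage changes, again without control 2, was 0.89 after UIR (adjusted p = 0.05703) and 0.86 after UUO (adjusted p = 0.05073), in tests that called 1.54 and 2.38% of all genes. It passed after UIR without control 3, UIR 2 or 3, or UUO 1 or 3 (0.89 to 1.17, adjusted p of 0.003148 to 0.02611), and after UUO without control 3, any UIR library, or UUO 1 or 3 (0.82 to 1.15, adjusted p of 1.19e-04 to 0.02006). PT pools of UIR held 36.8, 37.2 and 47.6 CPM against 17.3 to 31.1 CPM in control (0.84, adjusted p = 0.004079), a call lost with free RNA subtracted (0.69, 0.05275). PT pools of UUO held 203, 177 and 50.3 CPM, from only 9, 15 and 22 UMIs (1.75, adjusted p = 0.008175). That call was lost without UUO 1 (1.41, 0.1077), with each cell named by its own score (0.64, 0.5862) and with 15% removed as doublets (1.01, 0.3676). C1qa stood at a mean of 1.36 CPM in PT of control, 37.0 CPM after UIR and 195 CPM after UUO. The part of macrophage RNA in the PT calls of Nfkbia was not tested. In frTEC the UUO change passed (1.21, adjusted p = 0.03651) and was lost without control 2 or 5, UIR 2, or UUO 1 or 2 (1.02 to 1.24, adjusted p of 0.05123 to 0.1455). Empty droplets held 9.20 to 28.3 CPM of Nfkbia in control, 56.7 to 95.4 CPM in UIR and 111 to 230 CPM in UUO libraries.

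Nfkb1 encodes the precursor that is cut into a DNA-binding subunit of NF-kB. DT pools held 17.2, 14.7, 25.5, 25.5 and 22.0 CPM in control, 41.4, 40.2 and 51.3 CPM after UIR and 46.0, 48.3 and 54.9 CPM after UUO (0.71, adjusted p = 0.007190; 0.83, adjusted p = 0.002588), without overlap. In principal cells the UUO pools of 62.8, 73.8 and 54.5 CPM stood above 28.1 to 34.1 CPM in control (0.86, SE 0.16, adjusted p = 2.60e-04; 24 of 24 alternatives), and the UIR change did not pass (0.41, adjusted p = 0.09613). The DT calls were lost with N1 and N2 alone (0.68, 0.1247; 0.79, 0.06727) or AN1 and AN2 alone (0.53, 0.1729; 0.64, 0.09424), and at a mitochondrial limit of 15% that of UIR (0.78, 0.08141).

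Nfkb1 in LOH missed the threshold in both comparisons (0.44, adjusted p = 0.06204; 0.43, adjusted p = 0.07033), and passed after UIR without UIR 3, with cells of at least 1000 UMIs, with naming by each cell's own score, with no filter or with the replicate block (0.46 to 0.54, adjusted p of 0.03224 to 0.04944), and after UUO with that block (0.45, 0.04584). CD-I passed after UIR (0.73, adjusted p = 0.04868), kept in 9 of 23 alternatives. The losses included control 2, 4 or 5, UIR 2 or 3 or UUO 3 left out, DESeq2, the replicate block, either control set alone and 15% removed as doublets, and spanned 0.50 to 1.03 with adjusted p of 0.05131 to 0.404. CD-I also passed after UUO (0.90, adjusted p = 0.006829), but not without UUO 2 (0.71, 0.06484), with N1 and N2 alone (0.71, 0.1496) or with 15% removed as doublets (0.84, 0.05182). PT passed after UIR from 6.89 to 9.32 CPM to 11.1 to 14.1 CPM (0.56, adjusted p = 0.04101), kept in 12 of 24 alternatives. It was lost without control 1, 3 or 5 or any single UIR library, with N1 and N2 or AN1 and AN2 alone, at the mitochondrial limit of 15%, with 15% removed as doublets, with free RNA subtracted and with naming by each cell's own score (0.39 to 0.63, adjusted p of 0.06259 to 0.4878). T/NK pools held 130, 114, 49.4 and 117 CPM in control and 185, 192 and 195 CPM after UUO (0.88, adjusted p = 0.03172), lost without control 1, 3, 4 or 5 or UUO 2, with AN1 and AN2 alone, with free RNA subtracted and with naming by each cell's own score (0.69 to 1.15, adjusted p of 0.05378 to 0.1492). The control 2 pool of 19 cells held 237 CPM, above all 3 UUO pools, and with pools of at least 15 cells the call was lost (0.67, adjusted p = 0.1298). Endothelial pools held 67.8 to 84.6 CPM of Nfkb1 in control, 89.4 to 102 CPM after UIR and 86.1 to 112 CPM after UUO, and though no injured pool overlapped the controls neither change passed (0.32, adjusted p = 0.3121 and 0.34, adjusted p = 0.1013). It did not pass in macrophages (0.15, adjusted p = 0.6715 and 0.14, adjusted p = 0.6842), podocytes (0.33, adjusted p = 0.7106 and -0.21, adjusted p = 0.8390) or frTEC (0.52, adjusted p = 0.3516 and 0.36, adjusted p = 0.5650). The highest Nfkb1 levels were in cDC2, conventional dendritic cells, at 243 ± 8.58 CPM after UIR and 274 ± 36.5 CPM after UUO.

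Relb encodes the NF-kB subunit of the second, non-canonical arm, and had the largest fold changes in LOH, DT and CD-I among the 5 genes tested in all 11 classes. DT pools held 0.956, 0, 3.65, 5.10 and 2.94 CPM in control, 33.5, 26.2 and 28.9 CPM after UIR and 33.8, 33.8 and 40.1 CPM after UUO. The injured pools stood clear of the controls, and none of the 6 overlapped them. The log2 fold changes were 3.30 (SE 0.39, adjusted p = 1.73e-07) and 3.51 (SE 0.39, adjusted p = 5.34e-08). In LOH, Relb went from 1.74, 0, 5.20, 2.74 and 13.7 CPM in control to 35.9, 33.0 and 39.3 CPM after UIR (2.61, SE 0.39, adjusted p = 1.05e-05) and 42.8, 33.5 and 38.2 CPM after UUO (2.69, SE 0.39, adjusted p = 5.67e-06).

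In the collecting duct Relb also separated the injuries. Principal cells held 8.19, 4.21, 4.95, 5.80 and 6.20 CPM in control, 40.7, 30.2 and 34.2 CPM after UIR and 82.8, 50.4 and 50 CPM after UUO (2.33, adjusted p = 1.55e-05; 3.06, adjusted p = 6.13e-08). Intercalated cells held 4.64, 13.8, 9.28, 2.35 and 6.63 CPM in control, 48.3, 34.8 and 45.7 CPM after UIR and 98.6, 79.6 and 76.2 CPM after UUO (2.41, adjusted p = 5.22e-06; 3.23, adjusted p = 4.96e-09). In both segments the UUO pools lay above all UIR pools and these above all controls. UUO exceeded UIR by 0.72 in CD-P (SE 0.21, adjusted p = 0.03420) and by 0.82 in CD-I (SE 0.19, adjusted p = 0.02160). The CD-P difference was lost without UIR 1, UIR 2 or UUO 3, by DESeq2 and with either control set alone (0.41 to 0.75, adjusted p of 0.06064 to 0.1928). The CD-I difference was lost without UIR 1 (0.72, 0.1505), UUO 1 (0.88, 0.06167) or UUO 3 (0.69, 0.08241). Both were also lost at a mitochondrial limit of 15% (0.47, 0.3987 and 0.32, 0.6171) and with naming by each cell's own score (0.59, 0.09801 and 0.74, 0.08677). The Relb calls against control in DT, CD-P and CD-I held in all alternatives run for them, and those in LOH failed only at the mitochondrial limit of 15% (1.59, adjusted p = 0.1342; 1.66, 0.1021).

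The PT results for Il1b, Tnfrsf12a, Tnfrsf1a, Nfkbia, Nfkb1 and Relb compare unlike mixes of cells, since 1 PT cluster held 0.690% of control PT cells against 32.7% with UIR and 40% with UUO, and its part in them was not tested. Relb was low in PT, at 0.527 to 1.14 CPM in control and 2.25, 4.66 and 2.89 CPM after UIR (1.91, SE 0.36, adjusted p = 8.46e-04), lost without UIR 1 (1.42, 0.1042) or with free RNA subtracted (1.33, 0.1202). The LOH and PT changes after UIR were not separated by the test (difference 0.73, SE 0.60, adjusted p = 0.4689). Endothelial pools held 35.1, 45.3, 49.6, 32.9 and 40.1 CPM in control, 66.2, 59.6 and 56.0 CPM after UIR and 85.2, 74.5 and 68.2 CPM after UUO. Both injuries lay above all controls, and the change passed after UUO (0.85, SE 0.15, adjusted p = 9.05e-04; with N1 and N2 alone 0.58, 0.1148) and missed after UIR (0.57, adjusted p = 0.08059; with no filter 0.59, 0.03636). One endothelial cluster held 31.1% of control, 8.68% of UIR and 0.878% of UUO endothelial cells, and another 0.951, 10.8 and 24.1%. The part of these clusters in the endothelial results for Relb, Tnfrsf1a and Il33 was not tested.

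Among immune classes only macrophages and T/NK cells were tested against control, and Relb passed in macrophages. It went there from 14.7, 16.6, 35.3, 19.3 and 26.3 CPM in control to 46.7, 35.0 and 42.1 CPM after UIR (0.90, SE 0.27, adjusted p = 0.04849) and 51.8, 48.6 and 42.2 CPM after UUO (1.05, SE 0.26, adjusted p = 0.01094). One UIR pool lay just below the highest control, and the UIR call was kept in 8 of 24 alternatives. It was lost on leaving out any library but control 2 or UUO 2, by DESeq2, with the replicate block, with either control set alone, at the mitochondrial limit of 15%, with cells of at least 1000 UMIs and with naming by each cell's own score (0.69 to 1.10, adjusted p of 0.05095 to 0.4087). The UUO call was lost with N1 and N2 alone (0.93, 0.2532), AN1 and AN2 alone (0.96, 0.1606) or each cell named by its own score (0.81, 0.05198). T/NK cells stood at 44.8 to 81.2, 60.5 to 75.9 and 55.9 to 80.7 CPM, with no change that passed (0.17, adjusted p = 0.9275; 0.11, adjusted p = 0.9266), and control 2, with 19 cells, at 126 CPM. Podocytes passed after UUO (1.12, adjusted p = 0.04362), kept in 8 of 22 alternatives. The losses included control 1, 2, 3 or 4 or UIR 1 or 2 left out, DESeq2, either control set alone and the mitochondrial limit of 15%, and spanned 0.93 to 1.33 with adjusted p of 0.05149 to 0.1903. frTEC did not pass (1.31, adjusted p = 0.1770 and 1.19, adjusted p = 0.2386) unless each cell was named by its own score (1.36, 0.006922 and 1.30, 0.004349), with control pools of 12.1, 7.01 and 44.9 CPM and injured pools of 34.6 to 72.6 CPM. In cDC2 the 17 control cells held 1 Relb UMI, against 228 and 404 UMIs after UIR and UUO. The ratios of summed counts were 7.94 (95% interval 1.41 to 315, counting error only) and 11.4 (2.04 to 453). Without control 1, which held that UMI, the bounds were 1.92 and 2.77. Migratory dendritic cells, 11 in UIR and 24 in UUO libraries and in no control, held 1017 CPM of Relb (exact 95% interval 838 to 1223) and 947 CPM (831 to 1074).

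**Figure D3:**
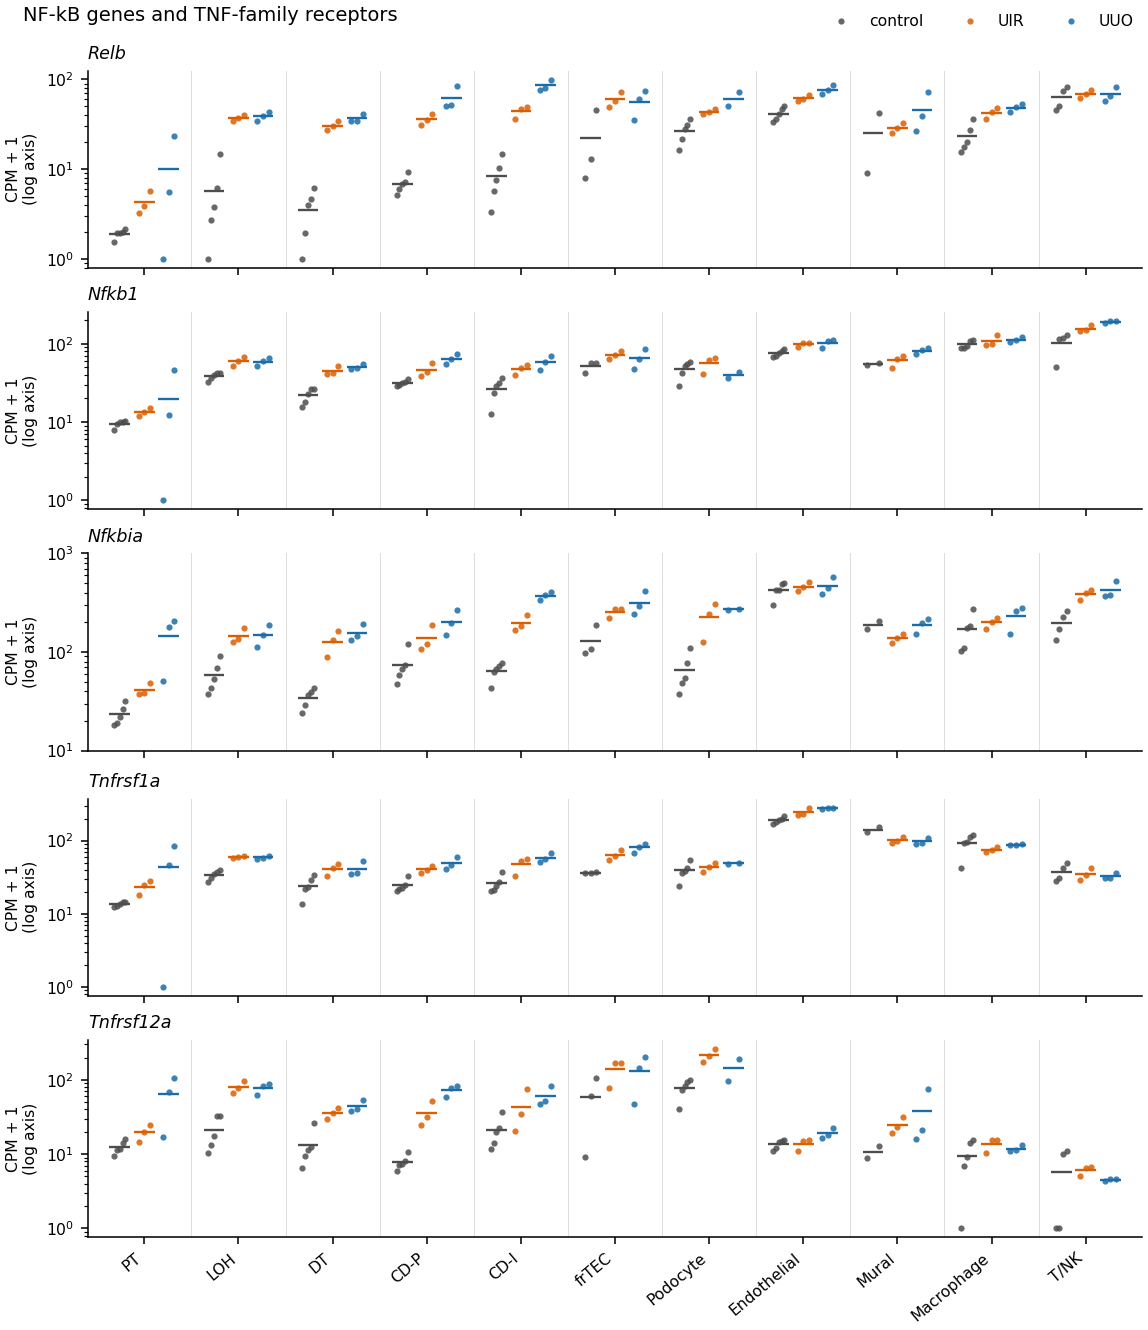
CPM + 1 on a log axis (y) of Relb, Nfkb1, Nfkbia, Tnfrsf1a and Tnfrsf12a in the 11 classes compared with control (x), with a point for each library, drawn from low to high within a group, and a line at the group mean. Relb points of UIR and UUO stand clear of control in LOH, DT, CD-P and CD-I, whereas the groups overlap in T/NK and mural cells.

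The distal pools differed between groups in more than these genes. Mitochondrial UMIs made up 18.9 to 24% of control LOH pools, 9.53 to 11.1% after UIR and 7.97 to 8.92% after UUO, and 21.7 to 25.3, 14.6 to 17.5 and 10.8 to 11.3% of CD-I pools. The early response list (15 genes known to rise on cell stress and dissociation) summed to 571 to 2049 CPM in control LOH, 2379 to 2808 CPM after UIR and 2034 to 3074 CPM after UUO, and to 759 to 1793, 1436 to 1720 and 2108 to 2862 CPM in CD-P. The immune lists (48 genes) summed to 53.3 to 90.8 CPM in control CD-P, 473 to 506 CPM after UIR and 716 to 949 CPM after UUO, of which Plac8 alone made a mean of 336 of 489 CPM after UIR and 658 of 858 CPM after UUO. Cd3e stood at 0.406 CPM, S100a8 at 10.2 CPM and C1qa at 18.6 CPM in the UUO principal cells, against 0, 0 and 2.40 CPM in control. With mitochondrial genes left out of the library size, 210 results were labeled the same as in the main setting. Beyond that and the mitochondrial limit of 15%, the part of the mitochondrial share in the changes was not tested. Nor was the part of the early response genes or of Plac8.

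In LOH and DT, control and injured cells mostly lay in different clusters, and 78.3% of UIR and 92.9% of UUO cells of DT lay in a cluster with no control cell. Of the control LOH cells, 98.9% lay in a single cluster, and the UIR cells of that cluster held 3.50 CPM of Relb against 3.67 in control, 57.8 against 54.0 CPM of Nfkbia and 21 against 19.9 CPM of Tnfrsf12a. In the 3 LOH clusters of injured cells, Relb stood at 59.4 and 48.5, 30.5 and 25.5, and 19.7 and 28.7 CPM after UIR and UUO. Intercalated cells of the groups shared their clusters. In the cluster that took up 76.1% of them after UUO, 41.2% after UIR and 21% in control, Relb stood in control, UIR and UUO at 3.84, 54.2 and 85.5 CPM, Nfkbia at 77.8, 236 and 365 CPM and Tnfrsf12a at 8.65, 36.0 and 61.9 CPM. In a shallower one, with 63.7% of control cells and 49.5 and 21.7% of the injured ones, Relb stood at 6.4, 36.4 and 14.1 CPM, Nfkbia at 64, 221 and 493 CPM and Tnfrsf12a at 19.2, 53.2 and 56.3 CPM, where the UUO cells held only 71023 UMIs in all. The third, with 38 control and 43 UIR cells, held 9.82 and 16.3 CPM of Relb and 48.3 and 90.6 CPM of Nfkbia. Of the principal cell clusters shared by control and UIR, the first held 9.08 and 27.2 CPM of Relb, the second 1.56 and 5.67 CPM, and the shallow one 14 and 26.7 CPM, with 73.7 CPM after UUO. The genes described were left out when the clusters were built, and these values are a description with no test.

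Summed by compartment, tubular cells showed Relb at 2.0, 1.58, 1.98, 1.81 and 3.19 CPM in control, 31.7, 28.3 and 37.0 CPM after UIR and 53.7, 46.6 and 47.6 CPM after UUO (3.44 and 3.91, adjusted p = 5.23e-09 and 9.85e-10). The PT share of kept cells was 69.3% in control, 15% with UIR and 1.23% with UUO, and the mix of segments cannot be told apart from the change in these sums. The summed tubular pools held 1.85 to 3.04 CPM of Il18 in control and 1.75, 3.04 and 1.68 CPM after UIR, overlapping, with a log2 change of -0.67 (adjusted p = 0.04044). In PT, the only tubular segment in which Il18 was tested, the change was 0.20 (adjusted p = 0.7510). Immune cells as a whole passed only for Relb after UUO (0.84, adjusted p = 0.03403), in a fit where 3.99% of all genes rose. The mix of immune classes differed between groups, and its part in this call was not tested. Stromal pools of controls 1, 2 and 3 held no Il33, whereas the 12 stromal cells of control 5, too few for a pool, held 82.4 CPM from 5 UMIs. The injured pools held 92.3, 120 and 109 CPM after UIR and 125, 95.4 and 65.6 CPM after UUO, with Fibro 1 all but missing from control.

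Direct comparison of the injuries covered 14 classes, since Fibro 1, cDC1 and cDC2 had pools in both. Of 140 gene and class pairs 82 were tested, of which 4 (4.88%) were higher in UUO, all in the collecting duct, and 1 (1.22%) lower, Il1b in macrophages. Over all genes 0.820% were higher and 1.19% lower. Fibro 1 held 58.6, 51.9 and 49.2 CPM of Relb after UIR and 28.7, 38.7 and 20.3 CPM after UUO, without overlap, but the difference of -0.85 (SE 0.24) did not pass (adjusted p = 0.07847), nor did those of Nfkb1 (-0.67, adjusted p = 0.06786), Tnfrsf12a (-0.96, adjusted p = 0.08884) or Nfkbia (-0.66, adjusted p = 0.3096). Without UUO 1 the Relb difference passed (-1.08, adjusted p = 0.03105), as did that of Nfkb1 (-0.82, 0.0361), and that of Tnfrsf12a passed without UIR 2 (-1.22, 0.0224). With no filter on low counts all 4 passed, and with the replicate block all but Nfkbia. Tnf in the summed tubular pools was higher in UUO than UIR by 1.43 (adjusted p = 0.02402). PT cells, with 4 Tnf UMIs after UIR and 0 after UUO, made up 2542 of 6151 tubular cells with UIR and 165 of 2128 with UUO. The part of this mix in the summed call was not tested. By single class, Tnf was tested between the injuries in 3 classes and called higher in 0.

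The endothelial and macrophage changes were also compared within libraries, in tests that called 5.64% of all genes after UIR and 10.3% after UUO. For Il1b the difference after UUO was 2.44 (SE 0.81, adjusted p = 0.04632). The gene did not pass the low-count filter in the endothelial fit and entered this test through the macrophage pools, and the endothelial change rested on 2 control UMIs, both in control 2, and 30 UMIs after UUO, so the value is given without a reading. It missed the threshold without control 1, 3, 4 or 5 or UUO 1 or 2 (2.18 to 2.53, adjusted p of 0.05317 to 0.1487). The UUO endothelium held 3.09 Il1b UMIs per 100 C1q UMIs, and UUO macrophages 1.2. The difference after UUO was -0.55 for Nfkbia (SE 0.20, adjusted p = 0.06581) and -0.48 for Relb (adjusted p = 0.3794), neither past the threshold, though that of Nfkbia passed without UUO 2 (-0.71, 0.01539).

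Wider lists of the pathway gave the setting of these genes. Of the ligand list (18 genes), 4 of 7 tested rose in LOH after each injury, 4 of 4 in DT and 6 of 6 in CD-P, where 16.9 and 19.9%, 18.2 and 20.8%, and 10.0 and 20.4% of all genes rose. In macrophages 1 and 2 of 8 rose, beside 3.65 and 5.51% of all genes. Among them, Ltb, a lymphotoxin subunit that acts through the receptor upstream of Relb, rose in CD-P from 1.09 ± 1.28 CPM to 40.7 ± 15.7 CPM after UUO (5.0, SE 0.50, adjusted p = 2.89e-07), and Tnfsf10, the death ligand TRAIL, rose from 22.7 ± 6.34 to 112.5 ± 18.05 CPM (2.09, adjusted p = 2.00e-07). In this list and in those of receptors, subunits, targets and the inflammasome, genes at or near 0 in control passed the low-count filter through the injured pools, so the shares describe the genes tested and are no measure of a list. The lists were drawn up with earlier results of these data known, so the counts are not independent evidence.

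Of the receptors and adaptors (27 genes), 6 and 8 of 20 rose in LOH after UIR and UUO, 5 and 9 of 19 in CD-P, 3 and 4 of 15 in DT with 1 lower each time, and 1 and 4 of 14 in CD-I. Of all genes, 16.9 and 19.9% rose in LOH, 10.0 and 20.4% in CD-P, 18.2 and 20.8% in DT and 6.67 and 12.3% in CD-I, so the DT counts and the CD-I count after UIR lay near the background. Il18r1, a chain of the interleukin-18 receptor, was at 0 in all control LOH pools and reached 35.1 ± 1.38 CPM after UIR and 82.8 ± 8.43 CPM after UUO, at least 23.2-fold and at least 53.6-fold above the limit that the control count allows (16.4 and 38 without control 5). UUO exceeded UIR there by 1.23 (SE 0.14, adjusted p = 2.38e-05). Il1r1, the interleukin-1 receptor, rose in DT from 4.03 ± 3.14 to 82.6 ± 9.75 and 89.2 ± 22.7 CPM (3.71 and 3.79, adjusted p = 5.62e-10 and 2.91e-10). Il6st, the signaling chain shared by the interleukin-6 family, rose in LOH from 42.2 ± 11 to 119.7 ± 22.4 CPM (1.23, adjusted p = 1.67e-05) and 145.5 ± 23.0 CPM (1.5, adjusted p = 7.30e-07).

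**Figure D4:**
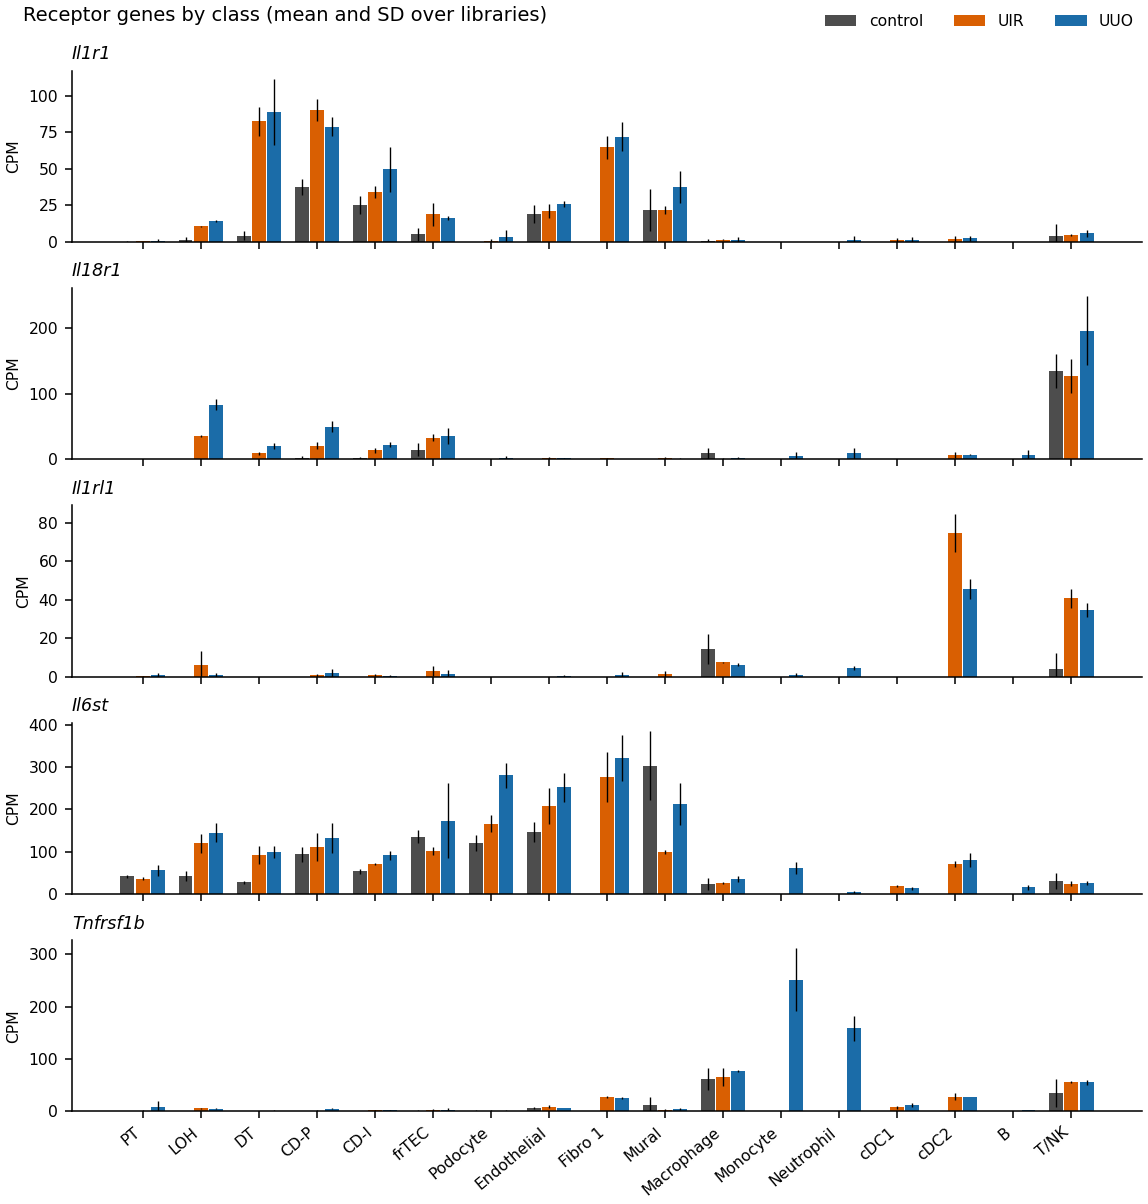
Mean CPM (y, bars from 0, SD over libraries as lines) of Il1r1, Il18r1, Il1rl1, Il6st and Tnfrsf1b in each class (x) for control, UIR and UUO. Il18r1 is at 0 in control LOH and at 35.1 and 82.8 CPM after UIR and UUO, and Il1r1 in DT goes from 4.03 to 82.6 and 89.2 CPM; a class without a bar had no pool of 20 cells or a level of 0.

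Of the NF-kB subunits and regulators (17 genes), 7 rose and 1 fell of 16 tested in LOH after UIR and 6 rose and 1 fell after UUO, and in CD-P 7 rose after UIR, and 12 rose and 1 fell after UUO, of 16. Of all genes, 16.9 and 19.9% rose and 14.2 and 16.6% fell in LOH, and 10.0 and 20.4% rose and 8.45 and 19.6% fell in CD-P. Nfkbia, Nfkb1 and Relb are not counted in this list. Nfkbiz, an IkB protein that acts in the nucleus, rose in LOH from 13.9 ± 6.31 to 77.7 ± 18.1 and 98.2 ± 19.7 CPM (2.33 and 2.66, adjusted p = 9.83e-07 and 7.24e-08). Nfkb2, whose processed product pairs with Relb, rose in CD-P from 8.85 ± 3.82 to 25.9 ± 4.64 and 40.9 ± 5.39 CPM (1.31 and 1.89, adjusted p = 0.001335 and 4.93e-06). Rela, the main transactivating subunit, rose in DT from 13.1 ± 3.06 to 37.7 ± 3.84 and 53.2 ± 14.7 CPM (1.08 and 1.5, adjusted p = 9.73e-04 and 1.90e-05).

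Of the NF-kB target list (24 genes), 11 and 12 of 18 rose in LOH, 10 and 10 of 13 in DT and 11 and 14 of 17 in CD-P after UIR and UUO, with 2 lower each time, and 11 and 3 of 16 rose in PT, with 1 lower after UUO. Endothelium had 3 higher and 3 lower of 18 after UIR and 7 higher and 4 lower after UUO. The shares of all genes that rose were 16.9 and 19.9% in LOH, 18.2 and 20.8% in DT, 10.0 and 20.4% in CD-P, 7.76 and 2.32% in PT and 1.14 and 5.64% in endothelium, and those that fell were 14.2 and 16.6%, 18.8 and 20.8%, 8.45 and 19.6%, 3.35 and 1.72%, and 0.765 and 6.29%. Lcn2, the secreted tubular injury protein, rose in DT to 1211 ± 257 and 1605 ± 257 CPM (adjusted p = 4.59e-18 and 1.38e-18), with 7255 and 5810 UMIs after UIR and UUO and 1 UMI, in control 4, in all control pools. Without control 4 the sums were at least 993-fold and at least 1292-fold above the 3 UMIs that a control count of 0 allows. The chemokine gene Ccl20 was at 0 in control CD-P and stood at 103 ± 152 and 129 ± 137 CPM after UIR and UUO, with spreads as wide as the means. Of the inflammasome list (8 genes), 2 of 3 tested rose in LOH, 1 of 2 in DT and 2 of 2 in CD-P after each injury. In PT 1 of 2 rose after UIR and 0 after UUO, in CD-I 0 and 1 of 1, in frTEC 1 and 2 of 2, in endothelium 0 and 1 of 5 and in macrophages 0 and 1 of 8, in podocytes, mural and T/NK cells none rose, and none fell in any of these classes. Of all genes, 6.67 and 12.3% rose in CD-I, 1.61 and 2.18% in frTEC and 3.65 and 5.51% in macrophages. The shares for LOH, DT, CD-P, PT and endothelium stand above. With so few genes tested, no reading is drawn from these counts. Casp4 rose in LOH from 2.36 ± 2.30 to 45.5 ± 2.62 and 56.2 ± 11.3 CPM (4.25 and 4.53, adjusted p = 4.80e-08 and 6.75e-09), and Pycard, the inflammasome adaptor, rose in CD-P from 112.6 ± 20.9 to 250.5 ± 10.9 and 285 ± 2.95 CPM (1.01 and 1.13, adjusted p = 3.48e-05 and 2.20e-06).

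**Figure D5:**
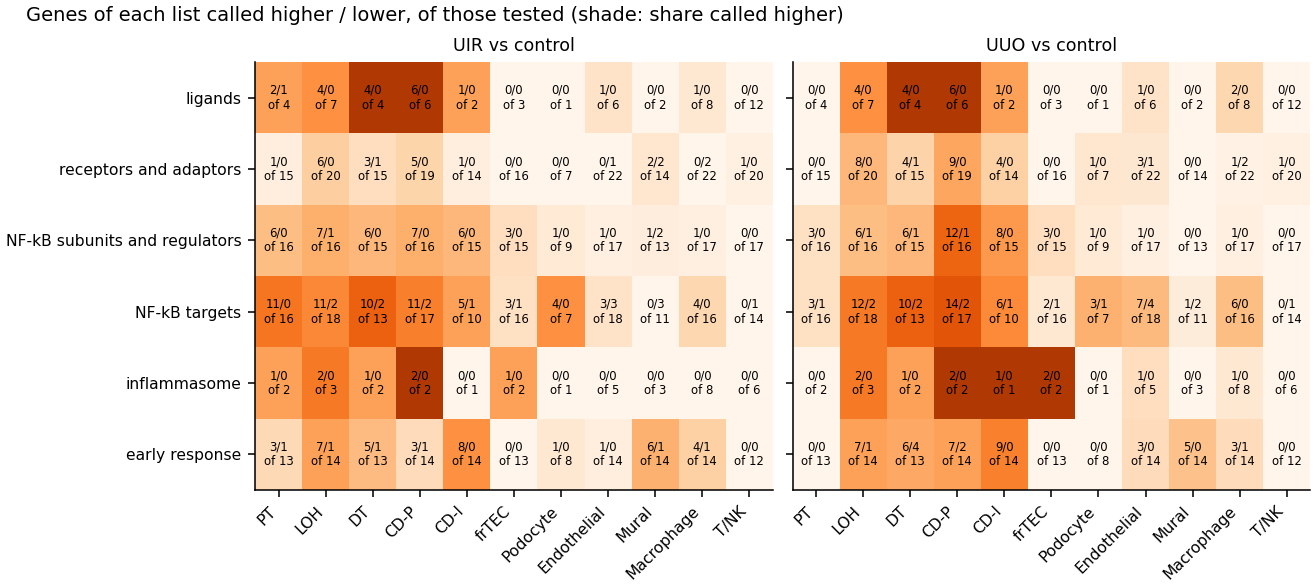
Number of genes called higher / lower of those tested for each list (rows) in each class (columns), after UIR (left) and UUO (right), with darker cells for a larger share called higher. The distal segments LOH, DT and CD-P hold dark cells in the ligand, subunit and target lists, in fits where up to 20.8% of all genes were called higher.

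Over 141 pools of class and library, each member with a mean of at least 5 CPM was set beside the 11590 genes of that level by Pearson correlation of log2(CPM + 1), as a description over pools that share libraries and depth. Relb lay closest to H2-D1 (0.83), Tubb5 (0.82) and Rela (0.82), and Nfkbia to H2-D1 (0.84), Relb (0.81) and Rela (0.80). Il1b followed Cd300ld (0.95), Cd33 (0.94) and Siglece (0.94), and Il33 followed Sema3d (0.90), Thbs2 (0.89) and Nav3 (0.88). For Nfkb1 the nearest genes were Cbl (0.86), Rab8b (0.85) and Esyt1 (0.83), for Tnfrsf1a Mef2a (0.79), Ptpn12 (0.78) and Map7d1 (0.77), for Tnfrsf12a Smim7 (0.76), Ctsl (0.76) and Agrn (0.74), and for Il18 Ptpro (0.80), E2f1 (0.78) and Pak1 (0.77). Tnf (4.78 CPM) and Il6 (0.546 CPM) were below that mean.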

How the data were processed

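Single cell RNA was measured by 10x Chromium in 11 libraries (5 control, 3 UIR, 3 UUO). The authors deposited raw matrices of counts (UMIs per gene and barcode, not normalized). The submitters' processing notes name Cell Ranger 3.1.0 and mm10. Groups came from the labels. Barcodes above a UMI cutoff (minimum 500 UMIs) or past an empty-droplet test (adjusted p 0.01, 10000 simulations) were called as cells. Cells over 30% mitochondrial or 5% hemoglobin UMIs or under 200 genes were removed, as were the 7.5% of barcodes with the highest doublet scores. Cells were clustered (2000 variable genes, 40 components, 20 neighbors, resolution 1) and clusters named from fixed markers, with a minimum score of 0.3 and 3 detected markers, limits that were set after the files were read.

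Counts were summed per library and class (at least 20 cells, at least 2 pools a group) and tested with edgeR 4.0.16 (R 4.3.3; quasi-likelihood, TMM, filterByExpr, the 3 groups in 1 fit without covariates), with Benjamini-Hochberg adjustment over all genes of the class and a threshold of 0.05. Differences between classes were tested with library as a block. The fits were tested on simulated data, but the outcome is not given here and is not used as support for the calls. Intervals are exact 95% intervals for counting error only, and a count of 0 allows up to 3 counts. Python 3.11.15, numpy 2.4.6, scipy 1.17.1, scikit-learn 1.9.0 and igraph 0.11.9 were used, with GENCODE M21 positions.

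The members and lists were chosen with earlier results of these data known. All 10 members were tested in every class with enough pools, their levels by class are plotted, and the text gives those a result turns on. From each list, class and comparison, the text drew on the called genes with the 4 largest changes, provided the higher group reached 20 CPM, and levels of Tnfsf12 outside LOH, of Il1rl1 and Tnfrsf1b in the receptor plot, and of marker genes were added after their values were seen. Alternatives were DESeq2 1.42.0, mitochondrial genes left out of the library size, no low-count filter, each library left out, a replicate block, N or AN controls alone, a mitochondrial limit of 15%, 1000 UMIs, 15% doublets, pools of 50 cells, free RNA subtracted, and naming by each cell's own score. Pools of at least 15 cells, and bounds with each library left out, were added after the data were seen.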

Additional observations from a re-analysis of the deposited data

Results flagged for a closer look

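Tnf in macrophages of control 4 stood at 23.0 CPM (7 UMIs). The next control library held 7.37 CPM (2 UMIs) and the lowest 4.14 CPM (1 UMI), so that the gap to the next library made up 0.829 of the control range. This was 1 of 47 control groups tested in this way, and chance flags about 1 in 20. The counts lie near the floor, so the flag is given without a reading.

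The change in Tnfrsf12a after UIR was larger in LOH than in PT, by 1.0 on the log2 scale (SE 0.29, adjusted p = 0.006042 by edgeR's quasi-likelihood test of the difference). The change in Il1b after UUO was higher in endothelium than in macrophages by 2.44 (SE 0.81, adjusted p = 0.04632). Il1b did not pass the low-count filter in endothelium alone and entered this test through the macrophage pools, and all control endothelial pools held 2 Il1b UMIs, both in control 2. The Il1b value is therefore given without a reading. Both differences missed the threshold when certain single libraries were left out.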

How the results depend on the processing

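Of the 27 genes and classes called higher after UIR, 16 were called with controls N1 and N2 alone, 15 with AN1 and AN2 alone and 11 at a mitochondrial limit of 15%, and 19 to 27 when a library was left out. Of the 30 after UUO the counts were 17, 17 and 15, and 23 to 30. These settings tested fewer pairs (53, 61 and 43 in place of 64). Lower calls after UUO numbered 0, and 1 with no filter on low counts, with 0 to 1 when a library was left out. For UUO against UIR, the 4 higher calls became 0 at the mitochondrial limit of 15%, and 1 to 5 when a library was left out. The 1 lower call became 6 with no filter, 4 with the replicate block and 0 with free RNA subtracted, and 0 to 2 when a library was left out. The differences between classes, 1 higher for each injury and 0 lower, ranged from 0 to 2 and from 0 to 1. The cause of these shifts was not tested beyond the number of pairs and libraries left. With the replicate block 29 were called after UIR (25 shared) and 30 after UUO. Pools of at least 15 cells gave 26 and 29 calls higher, the T/NK calls of Nfkbia after UIR and Nfkb1 after UUO being lost. The numbers did not pair the samples, since same-number correlations lay between -0.07 and 0.09 except in the unnumbered UIR and UUO pair (0.24 to 0.44). Those of unlike numbers reached 0.31 in macrophages, 0.24 in endothelium and 0.32 in LOH, for UIR 2 with UUO 1. No result reversed. Control pools of LOH held 44 to 62 cells and PT pools of UUO 36 to 88, which limits what could be detected there.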
